A study of Mus musculus with 6 samples.

Results

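Integrins and laminins are the receptors and the anchoring proteins with which cells hold on to the matrix around them. The members described here are the 36 genes, of 22287 in the deposited gene counts, whose symbols name an integrin alpha or beta chain or a laminin chain. They comprise 17 integrin alpha genes, 8 integrin beta genes and 11 laminin genes. RNA was sequenced from lower first molars, of which the apical part, where the root forms, was taken, in C57BL/6 mouse pups at postnatal day 7.5. The 3 control libraries (replicates 2, 3 and 5) had the genotype Arid1a fl/fl, with loxP sites around the Arid1a alleles and no Cre. The 3 mutant libraries (replicates 3, 4 and 5) had the genotype Gli1-CreER;Arid1a fl/fl, in which a tamoxifen-activated recombinase is made by cells that express Gli1, a gene switched on by Hedgehog signalling. All pups, controls included, carried the floxed alleles, and the stated treatment for the series was tamoxifen in corn oil at postnatal day 3.5, injected intraperitoneally at 1.5 mg per 10 g. The sources do not say which cells had recombined, nor whether a library held 1 pup or several, so each p reflects only the variation among these libraries. CreER was present in the mutants only, so its own effects and those of Arid1a loss cannot be told apart.

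An integrin receptor is a pair of an alpha and a beta chain in the cell membrane. The extracellular parts of the pair choose the ligand, and the tail of the beta chain connects to actin through talin, kindlins and other adaptors, or, for Itgb4, to keratin filaments through the hemidesmosome. A laminin is a trimer of an alpha, a beta and a gamma chain and is the main cell-binding protein of basement membranes. In the tooth, the dental epithelium sits on a basement membrane facing the mesenchyme. Ameloblasts, which come from this epithelium, lay down enamel, and periodontal fibroblasts grip collagen fibres with collagen-binding integrins. The members were grouped by where they are best known to act. There were 10 epithelial genes, 11 mesenchymal genes, 9 leukocyte and platelet genes and 6 shared genes that many cell types use.

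The libraries held 20453247 to 24255352 estimated counts each, of which 0.448% to 0.540% belonged to the 36 members. Levels are in CPM, the count of a gene per 1000000 counts of its library, with library sizes corrected by the TMM method. Called genes are those with an adjusted p below 0.05 in edgeR's quasi-likelihood test, adjusted over all genes tested. Of the members, 35 passed the filter on low counts. Itgae, an alpha chain of intraepithelial lymphocytes, did not, with 0 to 13 counts per library. The tissue markers were present in every library, with Dspp, a dentin gene of odontoblasts, at 8970 ± 530 CPM in controls (SD, n = 3) and the enamel gene Amelx at 146097 ± 54770 CPM. For the targeted gene Arid1a the controls were at 205 ± 3.96 CPM and the mutants at 128 ± 7.36 CPM (SD, n = 3). The Arid1a difference passed the test (adjusted p = 0.0129), but not without control replicate 2 (0.0506) or control replicate 3 (0.0529), nor with the replicate number as a block (0.0769).

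Of the 35 members tested, 1 rose and 2 fell in the mutants. Itga11, a collagen receptor chain of fibroblasts, was the riser, while Itga10, another collagen receptor chain, and Itgb6, a beta chain of epithelia, were the fallers. These 3 are 8.57% of the members tested, where the test called 1.86% of all genes, 0.659% as higher and 1.20% as lower. Control and mutant libraries did not overlap for 10 members, which is 28.6% of those tested against 21.3% of all genes. By direction, 6 members were higher and 4 lower, where 10.6% and 10.8% of all genes were. The median log2 fold change of the members was 0.11, with a range from -1.01 to 0.51, and the median of all genes was 0.01. By class the median was -0.34 for the epithelial members, 0.17 for the mesenchymal, 0.37 for the leukocyte and platelet and 0.00 for the shared members.

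**Figure D1:**
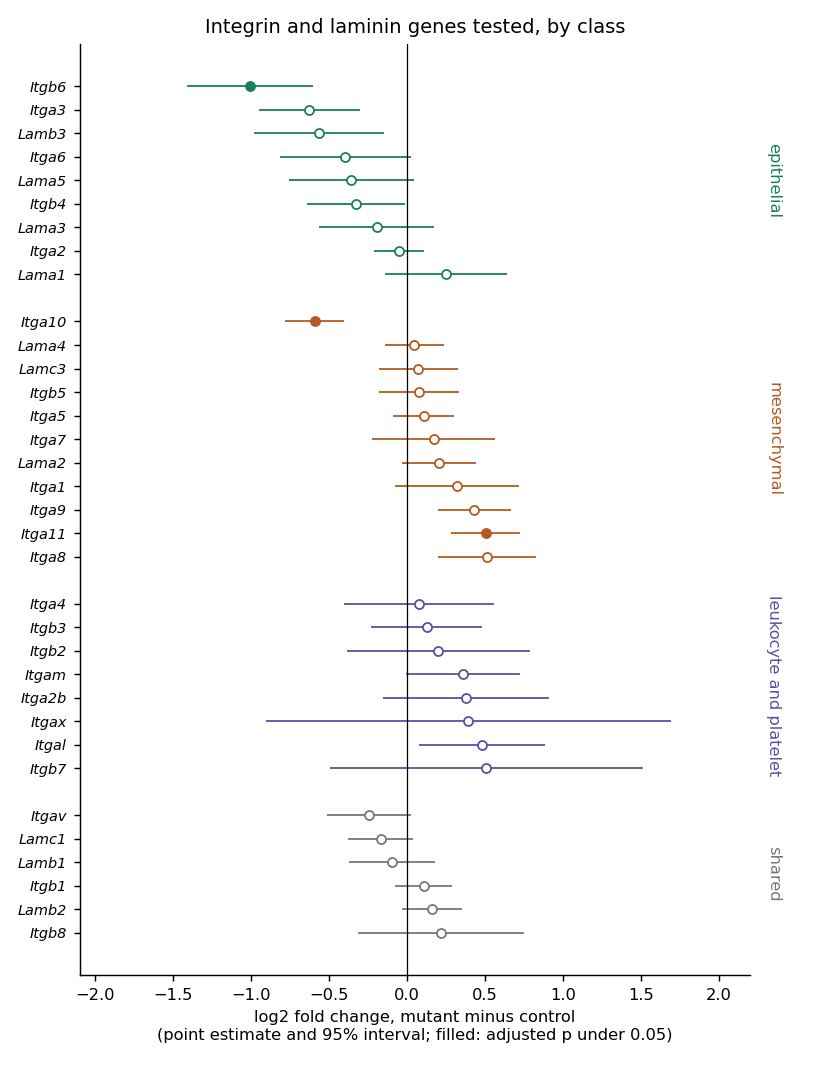
Log2 fold change (mutant minus control, horizontal axis) of 34 of the 35 members tested, grouped by class, with 95% intervals from edgeR's quasi-likelihood fit. Filled points mark the 3 called genes Itgb6, Itga10 and Itga11, and 8 of the 9 epithelial members drawn lie below 0 while all 8 leukocyte and platelet members lie above it.

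The promoters of the 3 called genes are shown because they are the members on which the comparison turns. RefSeq entries in the table used here (GRCm38.p6, the same assembly as mm10) matched 23 of the 36 members by symbol. Each line gives the 200 bases that lie 250 to 51 bases before the RefSeq start site, read 5′ to 3′ on the gene's own strand, with every CG pair in capitals. Itgb6 is shown from chr2:60722654-60722853 on the minus strand, Itga10 from chr3:96645334-96645533 and Itga11 from chr9:62677605-62677804, both on the plus strand. For Itgb6 the table holds 2 windows, and the other is not shown.
Itgb6: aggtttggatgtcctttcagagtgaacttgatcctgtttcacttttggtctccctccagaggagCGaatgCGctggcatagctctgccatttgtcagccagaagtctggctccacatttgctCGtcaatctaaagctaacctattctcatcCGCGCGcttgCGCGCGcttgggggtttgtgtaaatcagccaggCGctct
Itga10: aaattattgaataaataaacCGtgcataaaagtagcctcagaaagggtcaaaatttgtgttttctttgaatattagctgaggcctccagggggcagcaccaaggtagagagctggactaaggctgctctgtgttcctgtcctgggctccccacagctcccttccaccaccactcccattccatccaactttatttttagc
Itga11: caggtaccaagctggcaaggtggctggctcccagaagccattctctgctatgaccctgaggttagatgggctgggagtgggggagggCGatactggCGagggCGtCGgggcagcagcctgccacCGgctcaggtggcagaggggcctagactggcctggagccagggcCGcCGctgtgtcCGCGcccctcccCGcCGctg
The collagen receptor genes Itga10 and Itga11, which moved in opposite directions, differ in these windows. The Itga10 window holds 1 CG pair and is 46.0% G or C, while the Itga11 window holds 11 CG pairs and is 69.5% G or C. The Itgb6 window holds 10 CG pairs at 52.0% G or C. Over the 32817 windows of the same length in the table, the median was 4 CG pairs, with quartiles of 2 and 11, and the median share of G or C was 51.5%. Searched on both strands, none of the 3 windows held GACCACCCA, the consensus of Gli factors, which 0.192% of all windows held. Nor did they hold TGANTCA, the AP-1 site, which was in 5.58% of all windows. The GC box GGGCGG (in 24.6% of windows), the TATA box with the letters TATAAA (in 9.14% of windows) and the CCAAT box (in 28.4% of windows) were also without a match in the 3 windows. The windows end 51 bases before the start site, and the bases nearer to it, where a TATA box usually lies, were not searched. The search therefore cannot tell whether these promoters have one.

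Itga10 fell in the mutants. Together with Itga1, Itga2 and Itga11 it makes up the collagen-binding alpha chains, all of which pair with Itgb1, and it is best known from cartilage. Its level was 33.4, 31.8 and 36.5 CPM in control replicates 2, 3 and 5 and 22.6, 23.3 and 21.5 CPM in mutant replicates 3, 4 and 5. The groups are well separated and the spread within each is small. The log2 fold change of Itga10 was -0.59 (SE 0.08, 95% interval -0.78 to -0.40, adjusted p = 0.0227, edgeR). In mm10 Itga10 spans chr3:96645584-96664519 (plus strand). In GENCODE M21, 34.5% of its exon bases are shared with the same-strand gene model Gm42957, so reads there cannot be assigned to either gene with certainty. Gm42957 itself was low, with 1.14 to 1.95 CPM in controls and 0.651 to 0.922 CPM in mutants (adjusted p = 0.128, edgeR). The sum of Itga10 and Gm42957 was 35.4, 33.6 and 37.6 CPM in controls and 23.2, 24 and 22.4 in mutants. The Itga10 call was kept without mutant replicate 3 (0.0436) and lost without control replicate 2 (0.0809), 3 (0.0760) or 5 (0.0782) or mutant replicate 4 (0.0770) or 5 (0.0676).

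Itga11 rose in the mutants. It encodes the collagen receptor chain of fibroblasts and of the periodontal ligament. Its level was 30.8, 32.3 and 28.7 CPM in control replicates 2, 3 and 5 and 41.2, 48.5 and 40.5 CPM in mutant replicates 3, 4 and 5. Each mutant library lies above each control library. The log2 fold change was 0.50 (SE 0.10, 95% interval 0.28 to 0.72, adjusted p = 0.0485, edgeR). The call was lost whichever library was left out: the adjusted p was 0.117, 0.135 and 0.141 without control replicates 2, 3 and 5, and 0.0572, 0.129 and 0.0813 without mutant replicates 3, 4 and 5. In mm10 Itga11 spans chr9:62677826-62783982 (plus strand).

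Both chains pair with Itgb1, and their RNA can be compared within each library, where the scaling between libraries has no part. The ratio sets the called riser against a called faller, so its separation follows from the values above and adds no support. Bulk RNA does not show whether the same cells make both chains. The ratio of Itga11 counts to Itga10 counts was 0.923, 1.02 and 0.787 in control replicates 2, 3 and 5. In mutant replicates 3, 4 and 5 it was 1.83, 2.08 and 1.88. Controls thus held about as many counts of the 2 genes, and mutants held more of Itga11 (ratio 0.909 ± 0.115 in controls, 1.93 ± 0.133 in mutants, SD, n = 3). An exact permutation test of 3 libraries against 3 cannot go below p = 0.1, and none was run on this ratio, which was chosen after the values were seen. Itgb1 itself, the beta chain common to most matrix receptors, was at 507, 522 and 527 CPM in controls and 574, 577 and 524 CPM in mutants (log2 fold change 0.11, 95% interval -0.08 to 0.29, adjusted p = 0.602, edgeR).

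The other collagen-binding chains did not pass the test. Itga1, a chain of smooth muscle, fibroblasts and endothelium, spanned 25.7 to 37.0 CPM in controls and 30.5 to 44.0 in mutants (log2 fold change 0.32, 95% interval -0.08 to 0.72, adjusted p = 0.444, edgeR). Itga2, the collagen receptor of epithelia and platelets, was nearly level, at 37.0 to 40.0 CPM in controls and 36.5 to 38.2 in mutants (log2 fold change -0.05, 95% interval -0.21 to 0.11, adjusted p = 0.796). That sign turned to 0.15 when libraries were scaled to their totals alone. The Itga2 interval does not reach the estimates for Itga10 or Itga11.

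**Figure D2:**
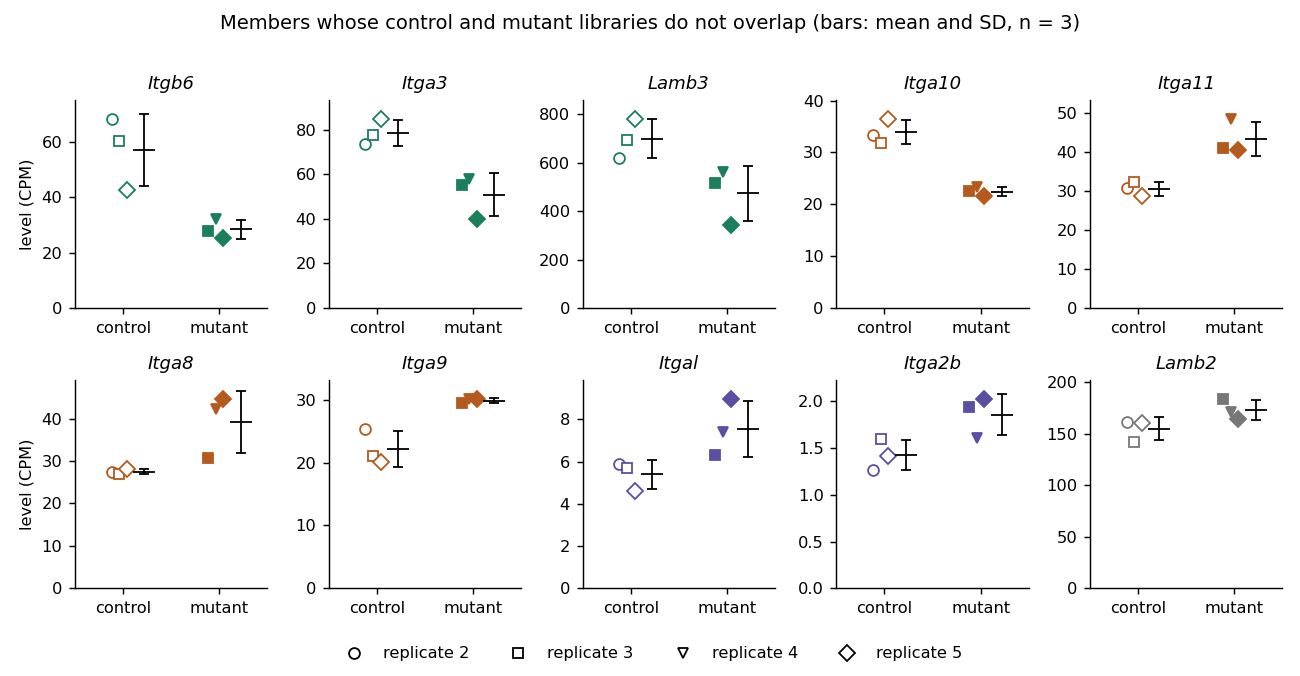
Level in CPM (vertical axes, starting at 0) of the 10 members whose control libraries (open symbols) and mutant libraries (filled symbols) do not overlap, with symbol shape for the replicate and bars for mean and SD (n = 3). Itgb6, Itga3, Lamb3 and Itga10 are lower and the other 6 are higher in the mutants, and only Itgb6, Itga10 and Itga11 passed the test.

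Among the remaining mesenchymal members, Itga8 and Itga9 were higher in every mutant library than in every control library but did not pass the test. Itga8, which with Itgb1 binds nephronectin and other ligands, was at 27.4, 26.9 and 28.1 CPM in controls and 30.8, 42.2 and 44.6 CPM in mutant replicates 3, 4 and 5. Mutant replicate 3 lies close to the controls and the other two lie well above. The log2 fold change was 0.51 (SE 0.14, adjusted p = 0.117, edgeR), and without mutant replicate 3 it was 0.66 and passed (adjusted p = 0.0193). Without any other single library Itga8 did not pass (adjusted p from 0.225 to 0.314), nor with the replicate number as a block (0.398). Leaving out the mutant library nearest to the controls favours a call, so that fit adds no support for a rise. Itga9, a receptor chain for tenascin C and Svep1, was at 25.3, 21.1 and 20.0 CPM in controls and 29.4, 30.1 and 30.1 CPM in mutants, with a log2 fold change of 0.43 ± 0.10 (SE, adjusted p = 0.0883). Of the 11 mesenchymal members, 10 had a positive log2 fold change and Itga10 alone a negative one. Without mutant replicate 4 the numbers were 8 and 3. Of all 17305 genes tested, 8994 were positive and 8311 negative. The laminin chains Lama2, of muscle and nerve, and Lama4, of vessels and mesenchyme, did not pass (log2 fold changes 0.20 and 0.05, adjusted p = 0.409 and 0.852). The fibronectin receptor chain Itga5 and the vitronectin receptor chain Itgb5 had 95% intervals of -0.09 to 0.30 and -0.18 to 0.33. Lamc3 (adjusted p = 0.827) and the muscle laminin receptor chain Itga7 (0.713) did not pass either. Of 8 markers of smooth muscle and pericytes, 5 had positive and 3 negative log2 fold changes, and 3 were higher in every mutant library. Myh11, a smooth muscle myosin gene, rose (0.92, adjusted p = 0.0499, edgeR), while the pericyte genes Rgs5 and Pdgfrb were at -0.00334 and -0.02. The list had a summed level of 483 to 506 CPM in controls and 524 to 550 in mutants. Of 9 markers of dental mesenchyme and odontoblasts, 5 were higher and 1 lower in every mutant library, and 2 rose (median log2 fold change 0.30). Those without overlap are 66.7% of the list and the called ones 22.2%, against 21.3% and 1.86% of all genes. The risers were Postn (0.73, adjusted p = 0.0262) and Prrx1, a mesenchymal transcription factor gene (0.72, adjusted p = 0.0299). The sum of the 9, mostly Col1a1, was 49921 to 51292 CPM in controls and 43538 to 53176 in mutants. The part of these cell types in the values was not tested. Markers of skeletal muscle, which also expresses Itga7, summed to only 7.02 to 41.2 CPM.

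Itgb6 fell in the mutants, with the largest absolute log2 fold change among the 35 members tested. It encodes the beta chain that pairs with Itgav on epithelia, activates latent TGF-beta, and is needed for normal enamel in mice. Its level was 68.4, 60.4 and 42.7 CPM in control replicates 2, 3 and 5 and 28.0, 32.1 and 25.2 CPM in mutant replicates 3, 4 and 5. All mutant libraries lie below the lowest control, which is replicate 5. The log2 fold change of Itgb6 was -1.01 (SE 0.17, 95% interval -1.41 to -0.61, adjusted p = 0.0365, edgeR). In mm10 Itgb6 spans chr2:60598292-60722643 (minus strand). The call was kept without control replicate 5 (0.0365). It was lost without control replicate 2 (0.0982) or 3 (0.139), without mutant replicate 3 (0.0716), 4 (0.0879) or 5 (0.104), and with scaling to library totals (log2 fold change -0.82, adjusted p = 0.0593).

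The partner of Itgb6 did not pass the test. Itgav was at 147, 176 and 168 CPM in controls and 133, 160 and 122 CPM in mutants, so that the groups overlap (log2 fold change -0.24, 95% interval -0.51 to 0.03, adjusted p = 0.385, edgeR). Per kilobase of exon, Itgb6 stood at 54.1, 39.9 and 29.5 per 100 of Itgav in controls and at 24.5, 23.4 and 24 in mutants. The mutant values lie close together and below all controls. The other beta chains of Itgav had positive values and did not pass: Itgb5 (log2 fold change 0.07), Itgb3 (0.12) and Itgb8 (0.22) had adjusted p from 0.734 to 0.814. Per 100 of Itgav these chains were also separated, and higher in every mutant library. In CPM the groups overlap for each of them, while Itgav, the denominator, averaged 164 CPM in controls and 138 in mutants. Which cells made these RNAs was not tested. Itgb5 stood at 204 to 231 in controls and 242 to 313 in mutants. For Itgb3 the values were 9.12 to 11.3 and 11.9 to 16.2, and for Itgb8 2.64 to 4.08 and 4.24 to 5.17.

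Bulk RNA cannot tell fewer epithelial cells from less RNA per cell, so the epithelial members are set beside the epithelial markers. Of 15 epithelium markers, 11 had a negative log2 fold change, 4 were lower in every mutant library and 0 passed the test. The 4 are 26.7% of the list, where 10.8% of all genes were lower without overlap and 21.3% were separated in either direction. No marker was at 0 in any library, with Ovol1 lowest and the basal keratin gene Krt14 at 512 to 972 CPM over all libraries. Their summed level was 3135, 4107 and 4182 CPM in control replicates 2, 3 and 5 and 4010, 3334 and 2387 CPM in mutant replicates 3, 4 and 5, so the groups overlap and mutant replicate 5 is lowest. The keratin genes Krt5 and Krt14 are the largest parts of this sum, with log2 fold changes of -0.23 and 0.03. Over the 15 markers the range was -1.43 to 0.45. A ratio to the sum thus follows Krt5 and Krt14 most and need not hold for each marker. Ameloblast markers included called genes. Of 8, 5 were lower in every mutant library and 3 fell, among them Mmp20, an enamel protease gene, and Amelx (adjusted p = 0.0205 and 0.0470, edgeR). These are 62.5% and 37.5% of the list, where 10.8% of all genes were lower without overlap and 1.20% fell. The other 3, Amtn, Odam and Klk4, which are genes of later, maturing ameloblasts, had positive log2 fold changes of 0.79, 0.93 and 0.42 and did not pass (adjusted p from 0.540 to 0.721). Mutant replicate 3 was the highest library for these 3 genes, and the groups overlap. The ameloblast sum, most of it Amelx in the controls, was 179399, 202339 and 278436 CPM in controls and 95171, 115059 and 68921 CPM in mutants. Amelx had a log2 fold change of -1.59, while the other markers lower in every mutant library were at -0.98 to -0.64. Amelx was also highest in control replicate 5. A ratio to this sum thus follows Amelx most in the controls and need not hold for each marker. Per 1000 CPM of epithelium markers, Itgb6 was at 21.8, 14.7 and 10.2 in controls and 6.98, 9.64 and 10.6 in mutants, where mutant replicate 5 overlaps control replicate 5. Per 100000 CPM of ameloblast markers it was at 38.1, 29.8 and 15.3 in controls and 29.4, 27.9 and 36.6 in mutants, and the groups overlap broadly. The part of the ameloblast share in the Itgb6 result was not tested.

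**Figure D3:**
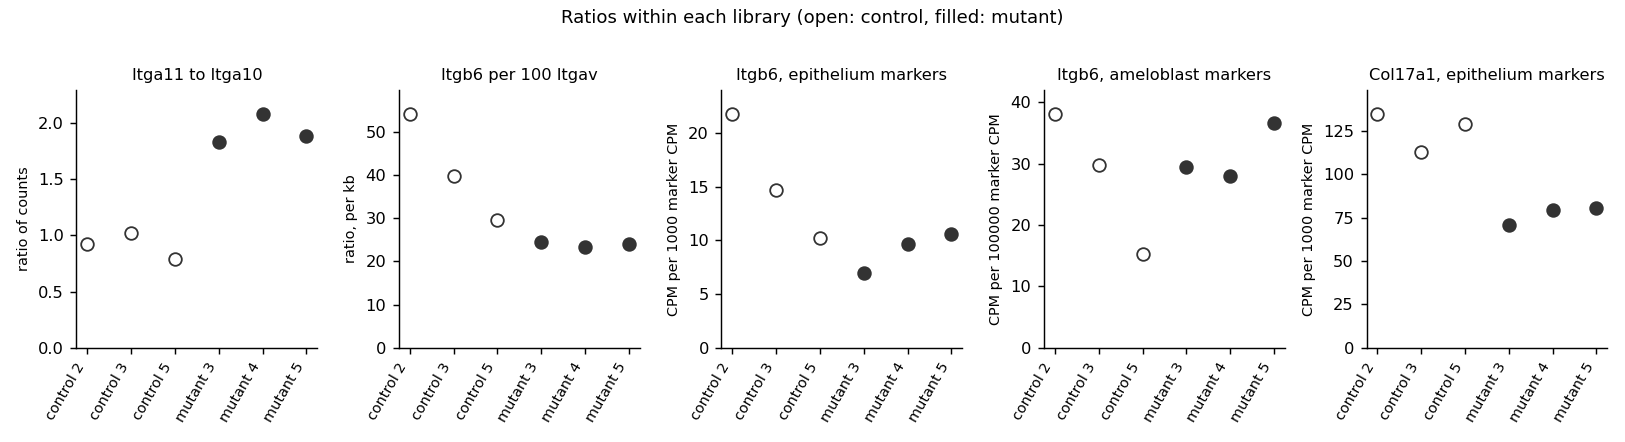
Ratios within each of the 6 libraries (vertical axes, starting at 0), with controls as open and mutants as filled points. Itga11 to Itga10, Itgb6 per 100 Itgav and Col17a1 to epithelium markers do not overlap between the groups, while Itgb6 to epithelium markers and Itgb6 to ameloblast markers do.

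Of the 10 epithelial members, 9 had negative log2 fold changes, or 8 with scaling to library totals, where Itga2 turned positive. Of all 17305 genes tested, 8311 were negative. The epithelial median of -0.34 was -0.215 without mutant replicate 5, the library with the lowest epithelial markers. Itga3, a laminin receptor chain of the basal epithelial surface, was at 73.5, 77.7 and 84.8 CPM in controls and 55.0, 57.9 and 39.8 CPM in mutants. Every mutant library lies below every control, yet Itga3 did not pass (log2 fold change -0.63, SE 0.14, adjusted p = 0.0773, edgeR). Relative to the summed epithelium markers, Itga3 was also lower in every mutant library, at 18.9 to 23.4 per 1000 CPM in controls and 13.7 to 17.4 in mutants. Per 100000 CPM of ameloblast markers the order was the reverse, at 30.5 to 41.0 in controls and 50.3 to 57.8 in mutants. Amelx, most of that sum in controls, fell more than Itga3 (log2 fold change -1.59), so a higher ratio is no sign of a rise in Itga3.

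The hemidesmosome receptor is the pair of Itga6 and Itgb4, and neither chain passed. Itga6 was at 174, 233 and 235 CPM in controls and 197, 168 and 124 CPM in mutants (log2 fold change -0.40, 95% interval -0.82 to 0.03, adjusted p = 0.364, edgeR). Itgb4, which carries the long tail that binds plectin, was at 178, 203 and 228 CPM in controls and 165, 186 and 135 CPM in mutants (log2 fold change -0.33, adjusted p = 0.306). For both chains the groups overlap, and mutant replicate 5 is the lowest library. Relative to epithelium markers, Itga6 was lower in every mutant library, at 55.5 to 56.8 per 1000 CPM in controls and 49.1 to 51.8 in mutants, while Itgb4 overlapped. The ratio of Itgb4 to Itga6 per kilobase of exon was 0.595 to 0.699 in controls and 0.572 to 0.756 in mutants. Of the 4 hemidesmosome partners, 1 fell and 0 rose (median log2 fold change -0.14). Over all genes the test called 1.20% as lower and 0.659% as higher. In every mutant library 2 of the 4 partners were lower, where 10.8% of all genes were lower without overlap. A list of 4 genes is too short to judge such shares. Col17a1, the transmembrane collagen that binds both chains, was at 423, 465 and 539 CPM in controls and 284, 264 and 193 CPM in mutants. Col17a1 passed the test, with a log2 fold change of -0.94 ± 0.16 (SE, adjusted p = 0.0345, edgeR). Relative to epithelium markers Col17a1 was at 113 to 135 per 1000 CPM in controls and 70.9 to 80.7 in mutants, and relative to ameloblast markers the groups overlap. The Col17a1 call was kept without mutant replicate 3 (0.0407) and lost without control replicate 2 (0.0806), 3 (0.123) or 5 (0.117) or mutant replicate 4 (0.101) or 5 (0.0561). The linker genes Dst and Plec and the tetraspanin gene Cd151 did not pass (adjusted p from 0.303 to 0.970).

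Lama3 and Lamb3 encode chains of the epithelial laminin that anchors hemidesmosomes, and neither passed. Lamb3 was at 621, 696 and 782 CPM in controls and 516, 560 and 345 CPM in mutants, without overlap and with a log2 fold change of -0.56 ± 0.18 (SE, adjusted p = 0.184, edgeR). Lama3 was at 509, 605 and 485 CPM in controls and 458, 567 and 371 CPM in mutants, with overlap (log2 fold change -0.20, adjusted p = 0.636). Within each library, the ratio of Lamb3 to Lama3 counts was 1.22, 1.15 and 1.61 in control replicates 2, 3 and 5 and 1.13, 0.989 and 0.928 in mutant replicates 3, 4 and 5. The mutants lie below the controls, though control replicate 3 and mutant replicate 3 are close. Relative to epithelium markers, Lamb3 was at 170 to 198 per 1000 CPM in controls and 129 to 168 in mutants. Per 100000 CPM of ameloblast markers it was higher in every mutant library (281 to 346 and 487 to 542). Amelx, most of that sum in controls, fell more than Lamb3 (log2 fold change -1.59). Relative to epithelium markers, Lama3 overlapped. Lama5, the chain of mature epithelial basement membranes, and Lama1, of embryonic ones, had log2 fold changes of -0.36 and 0.25 (adjusted p = 0.389 and 0.554). Lama1 was the only epithelial member with a positive value.

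The chains that build most other laminins did not pass either. Lamc1 was at 444, 482 and 524 CPM in controls and 429, 450 and 409 CPM in mutants (log2 fold change -0.17, adjusted p = 0.433, edgeR), and this sign turned to 0.04 with scaling to library totals. Lamb1 overlapped as well (log2 fold change -0.10, adjusted p = 0.771) and turned to 0.11 under that scaling. Lamb2, the beta chain of vessel and nerve laminins, was slightly higher in each mutant library, at 161, 142 and 161 CPM in controls and 183, 171 and 164 CPM in mutants (log2 fold change 0.16, adjusted p = 0.426). Of the 11 laminin genes, 0 were called by edgeR, 1 (Lamb3) had an unadjusted p under 0.05 and DESeq2 called that 1. Among all 17305 genes tested, 2588 had an unadjusted edgeR p under 0.05 and DESeq2 called 874.

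All 8 leukocyte and platelet members tested had positive log2 fold changes, where 8994 of all 17305 genes tested did. Of the 8, edgeR called 0. At an unadjusted p under 0.05 there was 1, Itgal, where 2588 of all 17305 genes tested were under that limit. DESeq2 also called 0 of the 8, where it called 874 of all genes. Without control replicate 5, 6 of the 8 were positive and 2 negative, as they were with the replicate number as a block. The beta chain Itgb2 and its partners Itgal, Itgam and Itgax let white cells bind vessel walls and complement. Itgal was at 5.89, 5.71 and 4.63 CPM in controls and 6.30, 7.42 and 8.96 CPM in mutants, without overlap (log2 fold change 0.48, 95% interval 0.07 to 0.88, adjusted p = 0.245, edgeR). Itgam was at 6.53 to 8.07 CPM in controls and 7.65 to 10.6 in mutants (log2 fold change 0.36, adjusted p = 0.341), and 70.0% of its exon bases are shared with another gene model, Gm49368. Itgb2 was at 3.16 to 5.64 CPM in controls and 4.10 to 6.33 in mutants (adjusted p = 0.775). Itgax stayed below 1 CPM in each library, with 3 to 21 counts. The gut-homing chain Itgb7 was at 0.911 to 1.26 CPM in 5 libraries and 2.86 CPM in mutant replicate 3, with 21 to 74 counts. The platelet chain Itga2b did not overlap between the groups at 1.26 to 1.59 CPM in controls and 1.60 to 2.02 CPM in mutants (adjusted p = 0.505). It held only 26 to 50 counts per library. Itga4, which binds Vcam1, was at 53.2 to 57.7 CPM in controls and widely spread in mutants, at 39.1, 62.8 and 75.6 CPM (log2 fold change 0.07, adjusted p = 0.910), with the sign turned without mutant replicate 5 (-0.14). Itgb3, a chain of platelets and osteoclasts, had a 95% interval of -0.23 to 0.48.

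Of 17 leukocyte markers, 15 were tested, of which 12 had positive and 3 negative log2 fold changes. In the mutants 9 were higher in every library, and Cd68, a macrophage gene, rose (adjusted p = 0.0498, edgeR). The negative ones were the neutrophil genes S100a8 (-0.91) and S100a9 (-0.72) and the actin regulator gene Coro1a (-0.24), with adjusted p from 0.272 to 0.725. The summed level of the 17 was 326 to 404 CPM in controls and 426 to 556 in mutants. The defining T and B cell genes Cd3e and Cd79a were near 0 in both groups (0.0868 and 0.304 CPM in controls on average). Per 100 CPM of leukocyte markers, Itgal stood at 1.42 to 1.56 in controls and 1.48 to 1.65 in mutants, and Itgam at 1.93 to 2.0 and 1.79 to 2.13. Relative to these markers neither gene was separated between the groups. Itga4 was separated and lower in the mutants on this scale, at 14.2 to 17.7 in controls and 9.17 to 13.9 in mutants. Its own log2 fold change was 0.07, while the marker sum below it was higher in the mutants. Per kilobase of exon, Itga4 was at 5.75 CPM in controls, above Itgb2 at 1.55 and Itgam at 1.47. How much of the Itga4 RNA came from leukocytes was not tested. Erythroid markers were higher as well, at 1423 to 1948 CPM in controls and 2367 to 5511 in mutants. The part of leukocyte and blood markers in the values of these members was not tested.

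**Figure D4:**
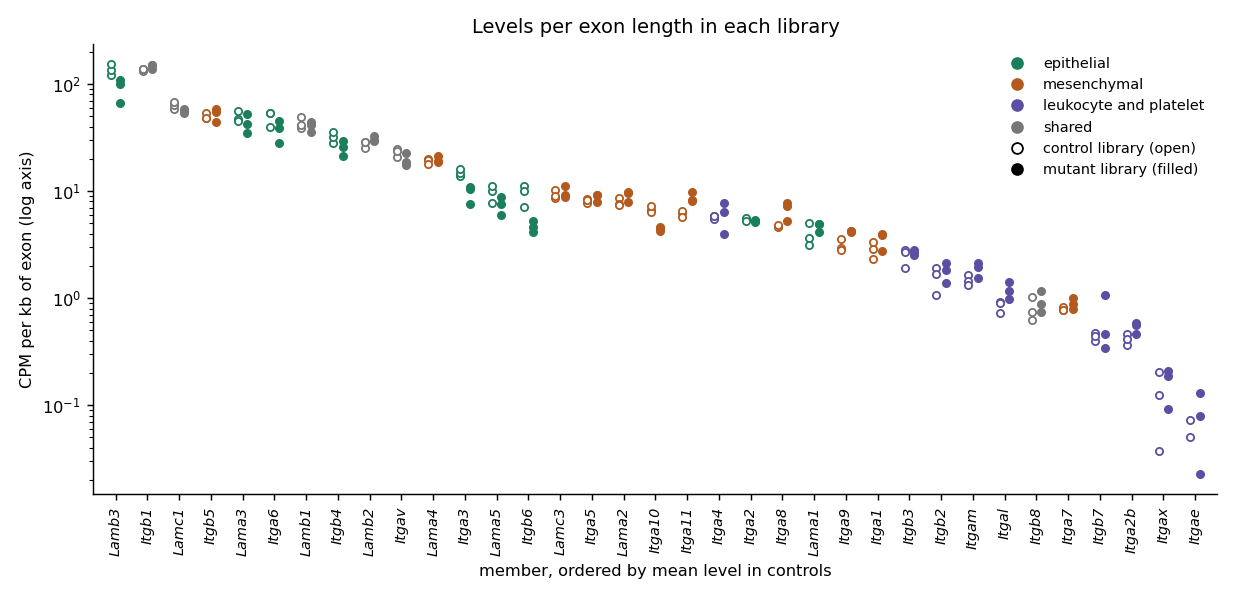
Level of 35 of the 36 members per kilobase of exon (log axis) in each control library (open) and mutant library (filled), ordered by the mean in controls; a library at 0 counts is not drawn. Lamb3 and Itgb1, both at 136 CPM per kilobase in controls, are highest of those drawn, and leukocyte members fill most of the low end.

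To compare members with each other, levels were divided by exon length. Among the members drawn, Lamb3 at 136 ± 15.7 and Itgb1 at 136 ± 2.77 CPM per kilobase were highest in controls (SD, n = 3), and they overlap. Lamc1 came next at 63.4 ± 5.24. Below it, Itgb5 (50.1 ± 3.05), Lama3 (49.6 ± 5.92), Itga6 (49.1 ± 7.98) and Lamb1 (43.2 ± 5.74) overlap from one to the next. The exon length of Lama3 covers a long and a short form, so its level per kilobase may be understated. Among the alpha chains, Itga6 was followed by Itgav (23.2 ± 2.14), Itga3 (15 ± 1.09) and Itga5 (8.13 ± 0.329). The collagen receptors were lower, at 6.72 ± 0.467 for Itga10, 6.16 ± 0.371 for Itga11, 5.43 ± 0.211 for Itga2 and 2.86 ± 0.514 for Itga1. Itga10 and Itga11 overlap, and Itga1 lies below the other 3. In mutants the order of Itga10 and Itga11 was the other way, at 4.46 ± 0.181 and 8.74 ± 0.895 CPM per kilobase.

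Among the integrin ligands, the called genes were all higher in the mutants. Of 18 ligand genes tested, 4 rose and 0 fell, and 14 did not pass, with a median log2 fold change of 0.04. The 4 are 22.2% of the ligand genes tested, where the test called 1.86% of all genes. Svep1, a large matrix protein bound by Itga9, was at 34.1, 27.0 and 23.9 CPM in controls and 51.6, 69.1 and 50.1 CPM in mutants, with a log2 fold change of 1.0 ± 0.17 (SE, adjusted p = 0.0343, edgeR). Vcam1, the cell surface ligand of Itga4, was at 5.64, 5.66 and 4.90 CPM in controls and 10.1, 9.41 and 11 CPM in mutants, a log2 fold change of 0.91 ± 0.13 (SE, adjusted p = 0.0227). Postn (0.73, adjusted p = 0.0262) and Thbs1 (0.80, adjusted p = 0.0300), matricellular proteins of connective tissue, were the others. For each of the 4, all mutant libraries lie above all controls. The calls of Svep1, Vcam1 and Postn were kept without mutant replicate 3 (0.0441, 0.0437 and 0.0407) and that of Thbs1 without mutant replicate 5 (0.0435). Without any other single library these 4 calls were lost, with adjusted p from 0.0532 to 0.139. Npnt, the nephronectin gene, was lower in every mutant library but did not pass (log2 fold change -0.34, adjusted p = 0.202).

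Inside the cell, 1 of 33 adhesion adaptor genes rose and 0 fell (median log2 fold change 0.06). That is 3.03%, where the test called 1.86% of all genes. Control and mutant libraries did not overlap for 15 adaptor genes, 10 higher and 5 lower in the mutants. This is 45.5% of the list, against 21.3% of all genes. The riser was Tgfb1i1, which encodes the paxillin relative Hic-5 of smooth muscle and fibroblast adhesions, at 38.5, 37.3 and 35.9 CPM in controls and 51.3, 51.3 and 48.5 CPM in mutants, with a log2 fold change of 0.44 ± 0.07 (SE, adjusted p = 0.0307, edgeR). This call was lost whichever library was left out (adjusted p from 0.0529 to 0.128). Talin, kindlin, integrin-linked kinase and focal adhesion kinase genes did not pass. Fermt1, the kindlin of epithelia, was lower in every mutant library (log2 fold change -0.46, adjusted p = 0.114), and Vcl, which encodes vinculin, was higher in each (0.35, adjusted p = 0.112).

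Of 20 basement membrane partner genes tested, edgeR called 0. Its unadjusted p was under 0.05 for 6 of them, and for 2588 of all 17305 genes tested. DESeq2 called 5 of the 20, and it called 874 of all genes where edgeR called 322. The median log2 fold change of the 20 in edgeR was 0.03. The 2 with the smallest p were Col4a6, a type IV collagen chain gene, and Agrn, which encodes the laminin-binding proteoglycan agrin. Col4a6 was at 10.1, 8.15 and 9.20 CPM in controls and 14.8, 13.1 and 18.5 CPM in mutants, with a log2 fold change of 0.76 ± 0.16 (SE, adjusted p = 0.0601, edgeR). Agrn was at 446, 391 and 442 CPM in controls and 300, 334 and 347 CPM in mutants, with a log2 fold change of -0.38 ± 0.09 (SE, adjusted p = 0.0937). In both genes the groups are separate, in opposite directions. Without mutant replicate 3, 1 gene of this list was called higher.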

How the data were processed

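RNA of 6 libraries (3 control, 3 mutant) was sequenced with single-end reads of 75 cycles, per the labels' protocols. STAR 2.6.1d, Partek and mm10 are named in the submitters' processing notes, without role or order; for the annotation, library kit and strand setting these sources state nothing. The authors deposited expected counts, estimated reads per gene that need not be whole (53.8% were, within 0.001), and a normalized signal for 18665 genes, which equals the expected count plus 1 times 1 factor per library and served for 1 alternative. Positions matched GENCODE M21 for all 36 members; ends and exon lengths (basic coding transcripts) come from it, and exons of 10 members overlap another gene.

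Expected counts were rounded, filtered with filterByExpr (17305 genes left) and scaled by TMM. Tests used edgeR 4.0.16 in R 4.3.3 (glmQLFit, glmQLFTest) with Benjamini-Hochberg adjustment over all genes and no covariates; intervals are 95%. Scripts were tested on simulated data. Replicates differed by more than counting noise (chi-square per degree of freedom of 24.3 or more within a group). Alternatives were other scalings and filters, DESeq2 1.42.0, limma 3.58.1 (voom, and log2(value + 1) of the normalized table), a block on the replicate number and each library left out. Members could be named; from each pathway list the called genes, up to 4 with the smallest p, or else the 2 with the smallest p. Npnt, Fermt1, Vcl, Gm42957 and the ratios within libraries were chosen after their values were seen. Members and lists were chosen with earlier results of these data known. Counts and medians cover all members, but 1 member is not reported here by its own values and is not drawn.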

Additional observations from a re-analysis of the deposited data

How the results depend on the processing

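Itgb6, Itga10 and Itga11 kept their sign in the 15 alternatives tried, but not their calls. The 3 calls among members became 7 with DESeq2 (3 higher, 4 lower; Itga3, Lamb3, Itga8 and Itga9 were added), 4 with library totals alone (3 higher, 1 lower: Itga8 and Itga9 at 0.0454 and 0.0468 were added and Itgb6 was lost), and 0 to 2 with a library left out. Itga11 also missed the threshold with no filter (adjusted p = 0.0506) and limma-voom (0.0552). Calls over all genes went from 322 to 520 with library totals alone (79.0% of them higher, against 35.4%), 874 with DESeq2 and 11 to 243 with a library left out; library totals moved the median of all genes from 0.01 to 0.21. Library totals gave medians of -0.14 for epithelial, 0.37 for mesenchymal, 0.565 for leukocyte and platelet and 0.21 for shared members, 2 basement membrane calls and 5 adaptor calls. DESeq2 called 5 basement membrane and 4 adaptor genes. The normalized table gave a leukocyte and platelet median of 0.205. With a library left out, the medians ranged from -0.45 to -0.215 (epithelial), 0.15 to 0.20 (mesenchymal), 0.25 to 0.41 (leukocyte and platelet) and -0.07 to 0.07 (shared), and the calls from 0 to 1 (basement membrane), 0 to 1 (hemidesmosome), 0 to 0 (adaptors) and 0 to 3 (ligands). Fewer samples enter those fits; for the other changes the cause was not tested.

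With the replicate number as a block, 90 genes, 0 members, 0 hemidesmosome, 0 adaptor and 1 ligand genes were called (adjusted p = 0.164 for Itga10, 0.302 for Itga11, 0.0607 for Itgb6 and 0.0769 for Arid1a), and the medians were -0.53 for epithelial and -0.12 for shared members. Numbers 3 and 5 occur in both groups, and deviations of same-numbered libraries correlated at 0.267 and -0.144, within the range of differently numbered libraries (-0.447 to 0.3). The protocol speaks of 3 pairs of samples without saying which, so whether the numbers pair the libraries is not known. Signs turned in uncalled members. With the block they turned for Itga4 (-0.0253), Itgb3 (-0.0386) and Itgb8 (-0.000864), and with library totals for Itga2 (0.15), Lamb1 (0.111) and Lamc1 (0.0361). With a library left out, values ranged for Itga4 from -0.141 to 0.302 (turned without mutant replicate 5), Itgax from -0.00398 to 0.989 (turned without control replicate 5), Itgb2 from -3e-04 to 0.375 (turned without control replicate 5), Itgb3 from -0.0282 to 0.238 (turned without control replicate 2). Likewise they ranged for Itgb5 from -0.011 to 0.182 (turned without mutant replicate 3), Itgb7 from -0.137 to 0.8 (turned without mutant replicate 3), Lama4 from -0.00883 to 0.0908 (turned without mutant replicate 4), Lamb1 from -0.167 to 0.0228 (turned without control replicate 5), Lamc3 from -0.038 to 0.147 (turned without mutant replicate 4).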
